A study of Mus musculus with 9 samples.

Results

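The comparison of E12.5 with E11.5 covers the interval in which the prominences of the mouse upper face complete their fusion. It rests on 6 of the 9 RNA-seq libraries of the series, and each of the 15808 genes with enough counts, of 54532 in the table, was tested in it. The tissue was the lambdoidal junction of C57BL/6J embryos, the meeting point of the maxillary prominence with the medial and the lateral nasal prominence. Embryos of both groups were wild type and untreated as far as the labels say, and E11.5 and E12.5 each have 3 libraries. Each library was made from a pool of 17–18 embryos, so the spread between libraries is that between pools and not between embryos, and the whole junction was taken, with mesenchyme, surface and nasal epithelium, nerves, vessels and blood. In such bulk samples, fewer cells of a type and less RNA per cell cannot be told apart. The question was which differentiation programs are higher after fusion and what falls.

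Facial mesenchyme of this age comes from the cranial neural crest and goes on to form cartilage, membrane bone, tendon and dermis. Each of these fates is known for its own regulators, such as Sox9 for cartilage, Runx2 and Sp7 for bone and Scx for tendon, and for its own matrix proteins. The ectoderm that covers the prominences is known to lay down a basal keratinocyte layer with an outer periderm, to form placodes for whiskers and teeth, and to give the olfactory and respiratory lining of the nasal pits. Genes of the early embryo, among them Lin28a and its relatives, are known to be shut down over the same days in many tissues.

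The libraries held 16581009–20836804 counts. Levels are given below in CPM, the counts scaled to a common library size, in the order of replicates 1, 2 and 3 of each stage. Regulators of the facial tissue were present at both stages: the mesenchymal Prrx1 lay at 481–537 CPM at E11.5 and 509–551 CPM at E12.5, and the epithelial Trp63 at 58.2–64.7 and 61.5–75.6 CPM. Libraries of E12.5 differed more among themselves than those of E11.5, with a standard deviation of log2 differences of 0.462–0.568 against 0.345–0.389. The difference of E12.5 replicate 2 minus replicate 3 followed gene length (Spearman's rho = 0.53 over genes, which share the libraries and are no replicates). For replicate 1 minus 2 rho was -0.46, and for replicate 1 minus 3 it was 0.22. The same 3 differences at E11.5, in the order 1 minus 2, 1 minus 3 and 2 minus 3, had 0.26, 0.25 and -0.08. Ttr, a transport protein known as a product of the choroid plexus, had 0 counts in each E11.5 library and 268, 870 and 0 counts in the E12.5 libraries. It was therefore not a signal of all E12.5 pools, and it was left out by the low-count filter. Myod1 and Myog, which define skeletal muscle, had at most 7 and 18 counts in any of the 6 libraries, and Bglap and Ibsp, products of mature bone, at most 5 and 7.

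Genes were called DEGs when edgeR's quasi-likelihood test gave a p-value, adjusted by Benjamini-Hochberg, no higher than 0.05 and the log2 fold change was 1 or more in size. In E12.5 vs. E11.5, 806 genes passed, 5.1% of those tested. The direction was uneven. A total of 654 genes (4.14% of those tested) were higher and 152 (0.962%) were lower at E12.5, whereas the log2 fold changes of the tested genes had a median of 0.02. The higher DEGs had a median of 1.95 CPM at E11.5 and 6.17 CPM at E12.5, and their median fold was 2.92. The lower DEGs went from a median of 5.47 to 2.27 CPM, with a median fold of 2.64. Genes past an absolute log2 fold change of 2 numbered 177 among the higher and 22 among the lower. The libraries of the stages did not overlap for any of the 806 DEGs, as for 35.3% of all genes tested. Separate stages of a DEG named below therefore describe it and add no support to its call. Of the DEGs, 333 higher and 64 lower passed whichever single library was omitted (6 fits). Without E12.5 replicate 2, the lower DEGs numbered 392 and the higher 789. Without E12.5 replicate 1 they numbered 85 and 427, and without E11.5 replicate 2 they numbered 93 and 409.

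**Figure D1:**
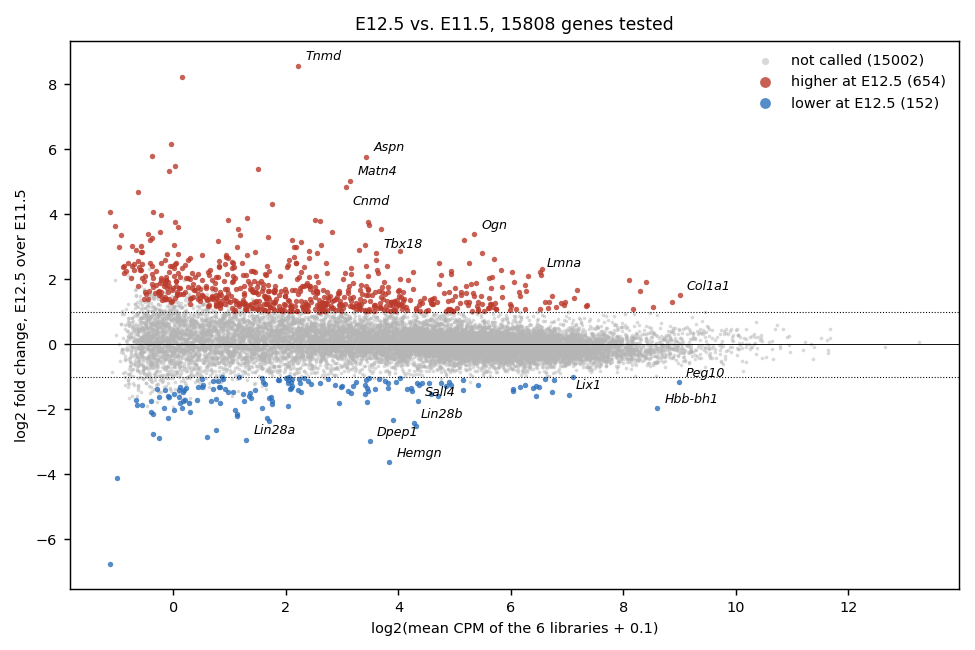
Log2 fold change of E12.5 over E11.5 (y axis) against the log2 mean level of the 6 libraries in CPM plus 0.1 (x axis) for the 15808 genes tested, with 654 higher DEGs in red, 152 lower in blue and the other 15002 in grey. Dotted lines mark a log2 fold change of 1 in each direction. The DEGs farthest from 0 lie at low levels, and Aspn, Matn4 and Cnmd stand out among the higher.

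Small leucine-rich proteoglycans had the highest median of the gene lists with at least 5 members tested. The lists were chosen with earlier results of these data known, so this ranking and the list counts are descriptions. These short matrix proteins bind collagen fibrils and growth factors. Of the 16 members tested, 10 were higher (62.5%, beside 4.14% of all genes tested), and their median log2 fold change over the 16 was 1.83. Without E12.5 replicate 1, 6 were higher. Aspn encodes asporin, a class I member that binds collagen, and had the smallest p-value of all genes. Its level was 0.43, 0.288 and 0.421 CPM in the E11.5 libraries and 25.6, 17.3 and 20 CPM in the E12.5 libraries, a log2 fold change of 5.77 ± 0.26 (SE) with an adjusted p of 3.33e-06. Every E12.5 library was thus far above every E11.5 library, and the 3 E11.5 libraries had between 6 and 8 counts. Ogn, which encodes osteoglycin, went from 8.22, 4.18 and 9 CPM to 83.7, 74.3 and 65.3 CPM (log2 fold change 3.38 ± 0.25 (SE), adjusted p = 3.61e-05). Its E11.5 libraries differed among themselves, with replicate 2 lowest, and none came near those of E12.5. Dcn, which encodes decorin, a regulator of collagen fibril width, was at 3.01, 1.63 and 2.16 CPM and then at 19.4, 18 and 19.1 CPM (log2 fold change 3.05 ± 0.21 (SE), adjusted p = 3.29e-05). Omd, which encodes osteomodulin of bone and tooth matrix, was at 0.699, 0.528 and 0.474 and 3.21, 2.69 and 4.11 CPM (log2 fold change 2.54 ± 0.32 (SE), adjusted p = 6.86e-04). Chadl, a chondroadherin relative of cartilage, was at 1.88, 0.865 and 1.26 and 7.09, 7.65 and 7.86 CPM (log2 fold change 2.49 ± 0.27 (SE), adjusted p = 2.96e-04), and 19.5% of its exon sequence is shared with another gene. As for every DEG, groups did not overlap for any of these members.

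The family's members were not equal in level per length. By the authors' FPKM values, Ogn had a mean of 2.75 at E11.5, below Lum (lumican) at 13.7 and Bgn (biglycan) at 10.7. At E12.5 it had 28.6, above Lum at 22.3 and Bgn at 19.8. Lum and Bgn themselves missed the fold threshold, with log2 fold changes of 0.70 ± 0.12 (SE) (adjusted p = 0.00344) and 0.88 ± 0.16 (SE) (adjusted p = 0.00629). The genes are known to lie in clusters. Aspn, Omd and Ogn are direct neighbours on chromosome 13 (GRCm38, plus strand) and were all higher, the fourth gene beside them, Ecm2, being at 0.86, 0.144 and 0.526 and 1.07, 0.969 and 0.596 CPM with overlapping stages. In the cluster of Dcn, Lum, Kera and Epyc on chromosome 10, 3 of 4 genes were higher, and in that of Optc, Prelp and Fmod on chromosome 1, 2 of 3. The calls of Prelp and Fmod each held in 2 of the 6 fits with a library omitted, and those of Kera and Epyc in 5. Epyc shares 40.65% of its exon sequence with another gene. Among all tested genes, 65 runs of 2 or more adjacent DEGs in 1 direction were found, 8 of them with at least 3 genes, and how many runs arise without any relation of neighbours was not tested.

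The sequences before the starts of the 3 neighbours are shown because all 3 genes were higher at E12.5. They are the 250 bases upstream of each RefSeq start on the plus strand of GRCm38.p6, at chr13:49544193-49544442 for Aspn, chr13:49582212-49582461 for Omd and chr13:49607765-49608014 for Ogn. Capitals mark matches, on either strand, to TATAAA, letters known from the TATA box, or to TGTGGT, the core bound by Runx proteins.
Aspn: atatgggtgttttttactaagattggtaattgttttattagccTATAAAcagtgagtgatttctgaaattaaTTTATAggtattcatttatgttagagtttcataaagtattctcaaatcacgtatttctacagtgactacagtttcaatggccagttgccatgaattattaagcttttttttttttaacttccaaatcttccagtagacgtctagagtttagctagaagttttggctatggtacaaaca
Omd: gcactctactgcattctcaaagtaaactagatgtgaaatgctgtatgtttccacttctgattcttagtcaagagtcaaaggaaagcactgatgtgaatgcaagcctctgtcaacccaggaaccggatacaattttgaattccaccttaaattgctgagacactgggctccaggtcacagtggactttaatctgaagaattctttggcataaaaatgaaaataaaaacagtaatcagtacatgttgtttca
Ogn: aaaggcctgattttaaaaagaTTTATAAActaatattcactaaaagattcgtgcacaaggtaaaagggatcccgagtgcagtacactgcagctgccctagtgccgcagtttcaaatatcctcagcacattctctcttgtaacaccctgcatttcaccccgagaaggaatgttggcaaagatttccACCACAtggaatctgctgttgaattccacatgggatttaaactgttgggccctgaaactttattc
Aspn held TATAAA letters at 207 and 178 bases before its start. Ogn held overlapping matches on both strands, 229 and 227 bases before its start, and a Runx core 65 bases before it. No match to either motif was found in the window of Omd. Of all 27025 promoters of this length in the table, 13% held TATAAA and 14.2% held TGTGGT on either strand. Among the promoters of higher DEGs with an entry, 42 of 464 (9.05%) held TATAAA and 38 (8.19%) held TGTGGT, against 6.14% and 10.3% of the 11273 promoters of tested genes. These are matches of letters in a window and no more.

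In the cartilage list, 13 of 27 members tested were higher (48.15%) and 1 was lower (3.70%), beside 4.14% and 0.962% of all genes tested. The median log2 fold change was 0.87, and the regulator that defines the lineage was not called. Without E11.5 replicate 2, 10 were higher. Chad (chondroadherin), among the 13, lost its call in each fit with a library omitted but that without E12.5 replicate 2. Matn4, which encodes matrilin 4 of cartilage matrix, was at 0.591, 0.577 and 0.368 CPM and then at 15, 16.4 and 19.6 CPM (log2 fold change 5.03 ± 0.24 (SE), adjusted p = 3.33e-06). Cnmd encodes chondromodulin, a cartilage glycoprotein that inhibits vessel growth, and was at 0.645, 0.192 and 0.842 and 15.4, 13.8 and 18.6 CPM (log2 fold change 4.83 ± 0.33 (SE), adjusted p = 3.08e-05). Acan, the large aggregating proteoglycan of cartilage, was at 0.591, 0.673 and 0.947 and 9.85, 13.7 and 7.98 CPM (log2 fold change 3.82 ± 0.29 (SE), adjusted p = 4.44e-05). All 3 were below 1 CPM in every E11.5 library and between 7.98 and 19.6 CPM in the E12.5 libraries. Col9a2 and Col9a3, chains of collagen IX on the surface of cartilage fibrils, had log2 fold changes of 1.86 ± 0.15 (SE) and 2.16 ± 0.19 (SE) (adjusted p = 6.51e-05 and 1.19e-04). Sox9, the master regulator of chondrocytes, was at 96, 102 and 114 and 116, 158 and 115 CPM, stages that barely separated (log2 fold change 0.32 ± 0.15 (SE), adjusted p = 0.175). Its partner Sox5 had a log2 fold change of -0.41 ± 0.19 (SE) (adjusted p = 0.174), and Sox6 one of 0.76 ± 0.19 (SE) (adjusted p = 0.0275), below the fold threshold. Col2a1, the main fibril collagen of cartilage, had -0.10 ± 0.16 (SE) (adjusted p = 0.708). The regulators that passed were Runx3, a factor of chondrocyte maturation, at 3.98, 1.92 and 4.16 and 20, 18.1 and 15.6 CPM (log2 fold change 2.42 ± 0.26 (SE), adjusted p = 2.77e-04), and Pax1, at 28.6, 9.85 and 19.7 and 103, 90 and 86.7 CPM (log2 fold change 2.27 ± 0.29 (SE), adjusted p = 7.85e-04). The lower member, Matn3, was at 1.99, 1.87 and 1.79 and 0.563, 1.02 and 0.774 CPM (log2 fold change -1.25 ± 0.33 (SE), adjusted p = 0.0329). Its call was lost in 5 of the 6 fits with a library omitted, all but that without E12.5 replicate 2.

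Tendon and ligament genes included the gene with the largest fold. Tnmd, which encodes tenomodulin, a membrane protein of mature tenocytes, had 0, 0 and 1 counts at E11.5 and 167, 137 and 176 counts at E12.5. Computed against 3 counts per library, its level was at least 58.9-fold higher, with an adjusted p of 1.17e-05. Scx, the regulator of tendon progenitors, was at 7.74, 8.98 and 8.16 and 32.4, 16.5 and 27.6 CPM (log2 fold change 1.61 ± 0.23 (SE), adjusted p = 0.00132). Among tendon matrix genes, Tnc (tenascin C) was at 24.5, 16.2 and 27.9 and 119.9, 123 and 76.9 CPM (log2 fold change 2.22 ± 0.23 (SE), adjusted p = 2.28e-04). Col14a1, a collagen on fibril surfaces, and Thbs2, a matricellular thrombospondin, had log2 fold changes of 2.18 ± 0.22 (SE) and 1.76 ± 0.19 (SE) (adjusted p = 2.16e-04 and 3.02e-04). Chodl, a membrane lectin, was at 3.23, 0.192 and 1.16 and 22.2, 17.3 and 21.4 CPM, with a wide spread at E11.5 that still stayed below every E12.5 library (log2 fold change 3.75 ± 0.51 (SE), adjusted p = 0.00114). In all, 10 of 19 members tested were higher (52.6%, beside 4.14% of all genes tested), with a median log2 fold change of 1.03. Mkx, another tendon regulator, was at 11.8, 12.5 and 11 and 9.12, 11.6 and 12.9 CPM with overlapping stages (log2 fold change -0.08 ± 0.17 (SE), adjusted p = 0.792).

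In the bone list, 4 of 22 members tested were higher (18.2%) and 2 lower (9.09%), with a median log2 fold change of 0.43. Of all genes tested, 4.14% were higher and 0.962% lower. Sp7, which encodes osterix, needed for osteoblast differentiation, was at 8.44, 5.38 and 7.84 CPM and then at 29, 29 and 27.9 CPM (log2 fold change 1.99 ± 0.18 (SE), adjusted p = 1.05e-04). Runx2, which acts before it, was at 76.7, 41.3 and 61.2 and 98.6, 109 and 89.6 CPM and stayed below the fold threshold (log2 fold change 0.73 ± 0.20 (SE), adjusted p = 0.0346). Alpl, the phosphatase of mineralising matrix, was at 15.1, 15.4 and 13.5 and 55.7, 41.3 and 38.5 CPM (log2 fold change 1.62 ± 0.16 (SE), adjusted p = 2.16e-04), and Bmp3, a BMP family ligand made by bone cells, was at 4.35, 2.02 and 3.84 and 20.1, 23.7 and 17.8 CPM (log2 fold change 2.59 ± 0.25 (SE), adjusted p = 1.82e-04). The fourth higher member was Omd, given above. The lower members, Col13a1 and Col22a1, are known as collagens of the cell surface and of tissue junctions. Their log2 fold changes were -1.29 ± 0.27 (SE) and -1.08 ± 0.20 (SE) (adjusted p = 0.0114 and 0.00719), and the calls were lost without E11.5 replicate 2 for Col13a1 (-1.01, adjusted p = 0.0533) and without E12.5 replicate 3 for Col22a1 (-0.98, adjusted p = 0.0161).

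**Figure D2:**
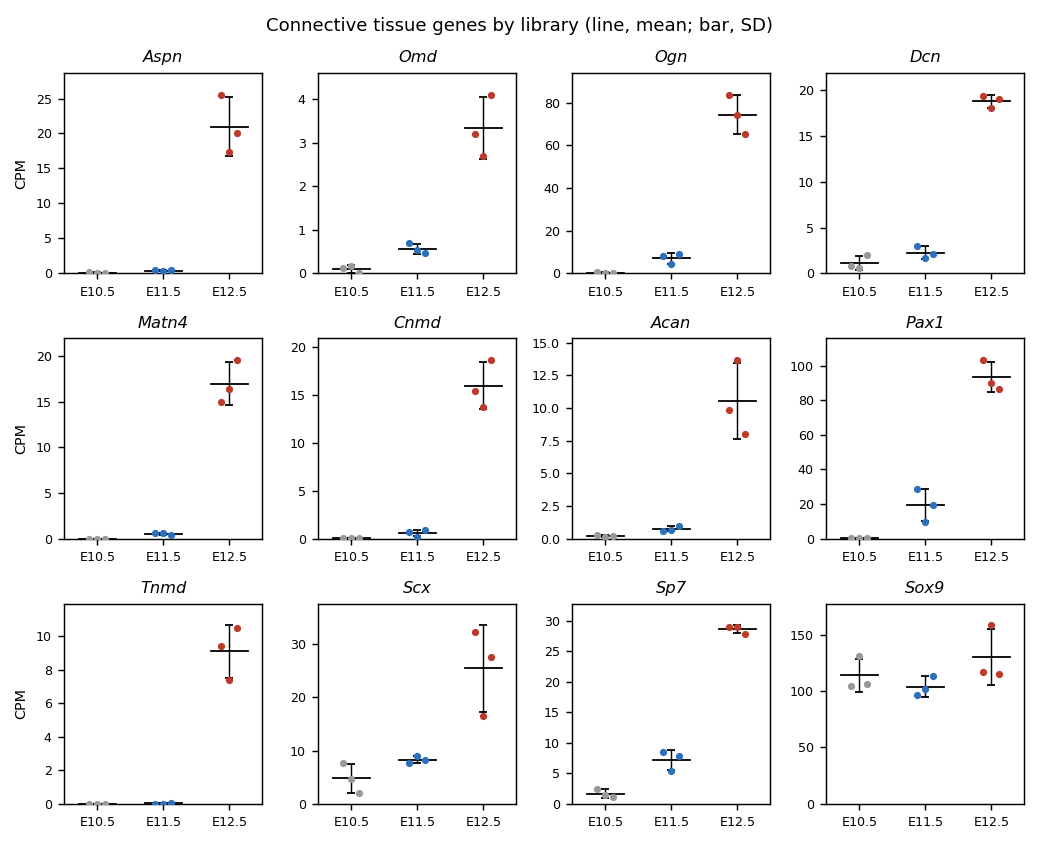
Level in CPM (y axis, linear, from 0) of 12 connective tissue genes in each library of E10.5 (grey), E11.5 (blue) and E12.5 (red), with the mean as a line and the SD as a bar (n = 3). Every E12.5 point lies above every E11.5 point, by a narrow margin for Sox9, whose log2 fold change of 0.32 was not called. E10.5 is shown for its level and is no part of the test.

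Of 46 fibrillar and elastic matrix genes tested, 16 were higher (34.8%, beside 4.14% of all genes tested). The median log2 fold change was 0.67. Col1a1, the main chain of collagen I, was at 305, 199 and 296 and 898, 842 and 530.0 CPM (log2 fold change 1.50 ± 0.22 (SE), adjusted p = 0.00166), while Col1a2, which encodes its partner chain, was at 1184, 1035 and 1200 and 1511, 1536 and 1253 CPM (log2 fold change 0.33 ± 0.14 (SE), adjusted p = 0.141). By the authors' FPKM values, Col1a1 had a mean of 40.3 at E11.5 and Col1a2 one of 90.9, and both had 114 at E12.5. Col16a1, a collagen that links fibrils, was at 19.4, 16.8 and 19.1 and 54, 53.1 and 57.5 CPM (log2 fold change 1.57 ± 0.13 (SE), adjusted p = 5.38e-05). Col8a2, a network collagen, Eln, which encodes elastin, and Ltbp3, which holds latent TGF-beta in the matrix, had log2 fold changes of 1.30 ± 0.12 (SE), 1.13 ± 0.12 (SE) and 1.43 ± 0.15 (SE) (adjusted p = 1.31e-04, 2.69e-04 and 2.87e-04). In absolute terms, the 13 collagens of the list together went from 2729–3308 CPM at E11.5 to 4601–5814 CPM at E12.5. Col3a1, the collagen of soft connective tissue, was among the 10 genes with the largest rise in CPM at 992, 935 and 1085 and 1629, 1729 and 1535 CPM, with a log2 fold change of 0.70 ± 0.13 (SE) (adjusted p = 0.00623). Vim, the intermediate filament of mesenchymal cells, was another at 492, 414 and 489.8 and 1019, 789 and 986 CPM and lay at the threshold itself (log2 fold change 1.00 ± 0.14 (SE), adjusted p = 0.00149, just under 1 before rounding), with no overlap of the stages.

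In the list of dermis and facial fibroblasts, 6 of 25 members tested were higher (24%, beside 4.14% of all genes tested). They were 5 of the 12 regulators and 1 of the 13 secreted and surface proteins. Osr1, a zinc finger factor of connective tissue, was at 10.5, 11.2 and 11.7 and 108, 59.7 and 68.3 CPM (log2 fold change 2.81 ± 0.21 (SE), adjusted p = 3.96e-05). Tbx18 was at 2.69, 3.17 and 3.21 and 22.9, 19 and 21.3 CPM (log2 fold change 2.79 ± 0.17 (SE), adjusted p = 1.28e-05), and 20.6% of its exon sequence is shared with another gene. The other T-box gene of the list, Tbx15, had a log2 fold change of 1.58 ± 0.21 (SE) (adjusted p = 8.58e-04). Twist2, which marks dermal fibroblasts, had 1.71 ± 0.19 (SE) (adjusted p = 2.96e-04), with 46.5% of its exon sequence shared with another gene, whereas its relative Twist1 was at 436, 424 and 458 and 517, 353 and 398 CPM with overlapping stages (log2 fold change -0.06 ± 0.15 (SE), adjusted p = 0.813). Cxcl14, a chemokine, was at 134, 77.5 and 125 and 528, 366 and 417 CPM (log2 fold change 1.96 ± 0.21 (SE), adjusted p = 2.87e-04). Egfl6, a secreted protein with EGF repeats, was at 7.31, 5.38 and 8.37 and 75.1, 65 and 53.2 CPM (log2 fold change 3.19 ± 0.19 (SE), adjusted p = 1.28e-05). Lmna, which encodes the A-type lamins of the nuclear envelope, was at 33.6, 27.1 and 36.6 and 171, 128 and 152 CPM (log2 fold change 2.21 ± 0.16 (SE), adjusted p = 3.34e-05). The remaining genes with the smallest p-values were Rgs6, a regulator of G protein signalling, Cavin1, a coat protein of caveolae, and Vgll3, a cofactor of TEAD factors. Their log2 fold changes were 3.44 ± 0.22 (SE), 1.76 ± 0.13 (SE) and 2.24 ± 0.17 (SE).

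**Figure D3:**
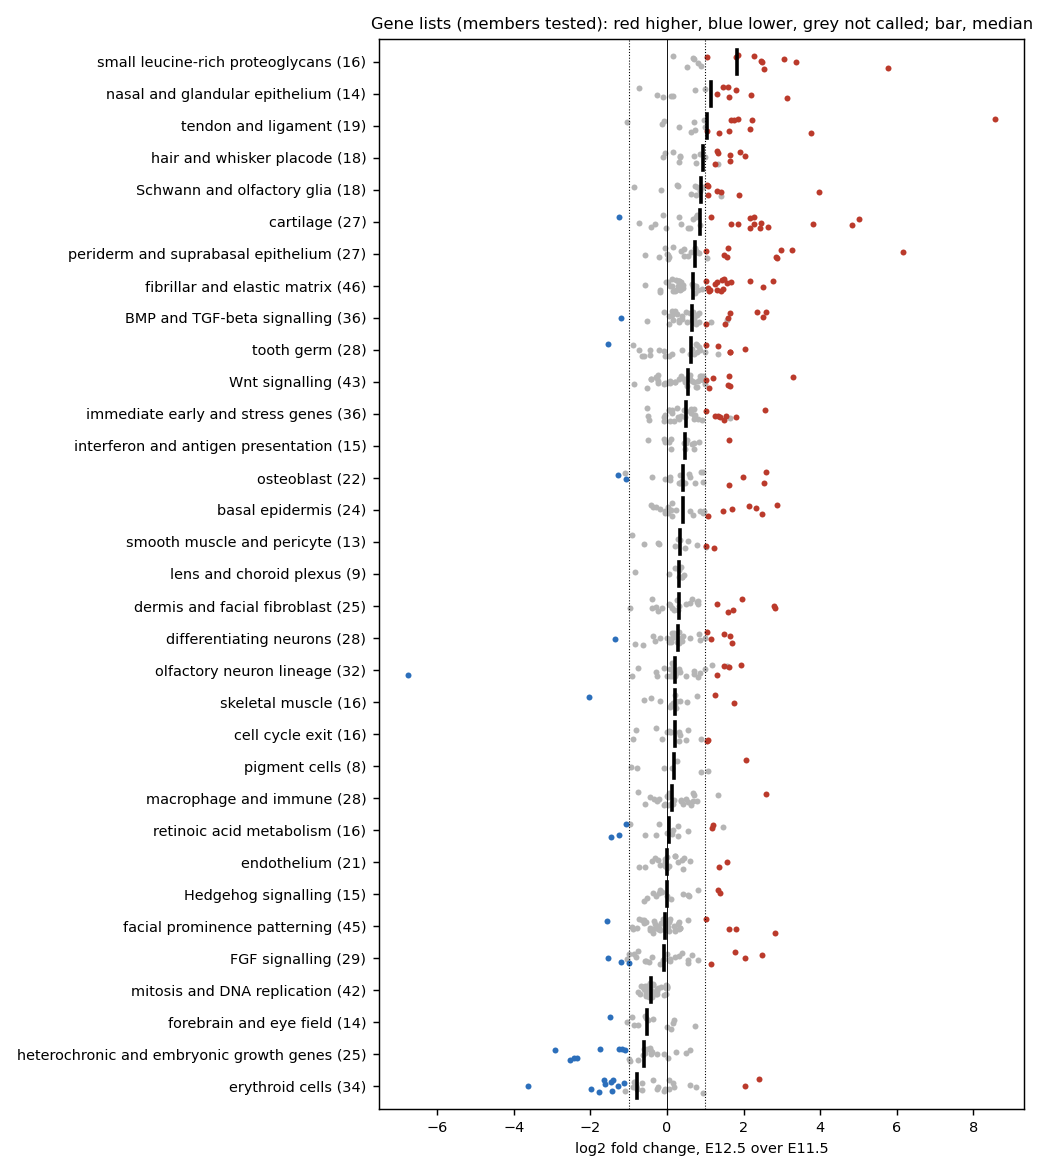
Log2 fold change of E12.5 over E11.5 (x axis) for the tested members of 33 gene lists with at least 5 members tested (y axis, number of members in parentheses), with higher DEGs in red, lower in blue, others in grey and the median as a bar. Lists are ordered by their median, from 1.83 for small leucine-rich proteoglycans to -0.78 for erythroid cells. They were chosen with earlier results of these data known, so the order is a description.

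Of 24 basal epidermis genes tested, 7 were higher (29.2%, beside 4.14% of all genes tested), and the median log2 fold change was 0.42. The higher genes were few among regulators. Members called were 7 of the 18 keratin and adhesion genes and 0 of the 6 regulators. Krt5 and Krt14, the keratin pair of basal cells, were at 39.8, 24.7 and 38.8 and 30.9, 26.3 and 36.6 CPM at E11.5 and at 153, 152 and 149 and 171, 117 and 184 CPM at E12.5. Their log2 fold changes were 2.13 ± 0.17 (SE) and 2.33 ± 0.19 (SE) (adjusted p = 5.77e-05 and 5.76e-05), and the stages lay far apart for both. Krt15, also of basal cells, and Krt17, a keratin of skin appendages and early periderm, had 1.71 ± 0.21 (SE) and 2.88 ± 0.30 (SE) (adjusted p = 6.31e-04 and 2.69e-04). Lama3, a chain of the laminin that anchors basal cells, was at 1.83, 0.384 and 1.84 and 9.51, 7.49 and 5.6 CPM (log2 fold change 2.49 ± 0.42 (SE), adjusted p = 0.00361). Trp63, which encodes the p63 factor of stratified epithelia, had a log2 fold change of 0.12 ± 0.12 (SE) (adjusted p = 0.539). Tfap2a, a factor of the surface ectoderm and neural crest, had 0.02 ± 0.14 (SE) (adjusted p = 0.95).

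Periderm and suprabasal genes, which mark the outer and differentiating layers, had 9 of 27 members higher, with a median log2 fold change of 0.73. This share was 33.3%, beside 4.14% of all genes tested, and without E11.5 replicate 2, 6 members were higher. Krt6a, a keratin of periderm and appendages, had 0, 0 and 1 counts at E11.5 and 29, 31 and 31 at E12.5, at least 11.1-fold higher (adjusted p = 2.93e-04), and 24.8% of its exon sequence is shared with another gene. Anxa1, which encodes annexin A1, was at 5.27, 2.88 and 3.58 and 29.1, 25.1 and 31.9 CPM (log2 fold change 2.87 ± 0.21 (SE), adjusted p = 3.92e-05). Lgals7, a galectin of stratified epithelia, was at 0.752, 0.721 and 1.47 and 7.6, 4.36 and 11.5 CPM (log2 fold change 2.98 ± 0.40 (SE), adjusted p = 0.00101). Both were above every E11.5 library in each E12.5 library. Of the regulators, Klf4, needed for the skin barrier, was at 18.5, 12.3 and 19.5 and 56.7, 45.5 and 40.2 CPM (log2 fold change 1.50 ± 0.19 (SE), adjusted p = 7.97e-04), and the ETS factor Ehf at 0.968, 0.48 and 0.474 and 3.88, 5.76 and 4.17 CPM (log2 fold change 2.84 ± 0.34 (SE), adjusted p = 4.87e-04). Grhl2 and Grhl3, grainyhead factors of the surface ectoderm, had log2 fold changes of -0.20 ± 0.15 (SE) and 0.16 ± 0.16 (SE) (adjusted p = 0.411 and 0.519). Krt6a, Krt5 and Krt1 were also direct neighbours among the DEGs, on chromosome 15. The call of Krt1 was lost without E11.5 replicate 2 (1.41, adjusted p = 0.0563). That of Dsg1a was lost without E11.5 replicate 2 or 3 or E12.5 replicate 1. Rhov lost its call in each fit with a library omitted but that without E12.5 replicate 2.

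In the whisker placode list, 7 of 18 members tested were higher (38.9%), with a median log2 fold change of 0.93. In the tooth germ list 5 of 28 were higher (17.9%) and 1, Fgf8, was lower (3.57%). Of all genes tested, 4.14% were higher and 0.962% lower. Without E11.5 replicate 2 or without E12.5 replicate 1, 3 of the tooth germ members were higher. Bmp2, Wnt10b, Shh and Fgf20 were higher members of both lists. The FGF ligand Fgf20 was at 0.323, 0.24 and 0.316 and 1.18, 0.915 and 1.55 CPM (log2 fold change 2.02 ± 0.42 (SE), adjusted p = 0.0113), and its call held in 3 of the 6 fits with a library omitted. Bmp2, an early placode and bone ligand, was at 7.96, 5.29 and 9.79 and 23.5, 25.7 and 22.5 CPM (log2 fold change 1.64 ± 0.21 (SE), adjusted p = 6.53e-04). Wnt10b, a ligand of hair and tooth placodes, was at 5.27, 4.08 and 4.84 and 16, 15.2 and 13.6 CPM (log2 fold change 1.65 ± 0.17 (SE), adjusted p = 2.26e-04). Shh, the Hedgehog ligand, was at 3.23, 4.66 and 3.95 and 13.7, 6.52 and 9.71 CPM (log2 fold change 1.33 ± 0.27 (SE), adjusted p = 0.0102). Its call was lost without E12.5 replicate 1 (1.03, adjusted p = 0.0629), and 28.4% of its exon sequence is shared with another gene. Prdm1, a zinc finger factor of whisker follicles, had a log2 fold change of 1.90 ± 0.21 (SE) (adjusted p = 2.96e-04). The tooth regulators Msx1 and Pax9 stayed below the fold threshold, with 0.06 ± 0.16 (SE) (adjusted p = 0.821) and -0.06 ± 0.15 (SE) (adjusted p = 0.816).

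Genes of nasal and glandular epithelium had 7 of 14 members higher (50%, beside 4.14% of all genes tested), and 4 without E12.5 replicate 1. Their median log2 fold change was 1.15. Foxa1, a forkhead factor of airway and gland epithelium, was at 1.13, 0.721 and 1.05 and 9.4, 8.72 and 7.45 CPM (log2 fold change 3.13 ± 0.24 (SE), adjusted p = 4.57e-05). Elf5, an ETS factor of gland epithelium, was at 4.46, 3.51 and 3.53 and 11.2, 13.5 and 15.5 CPM (log2 fold change 1.80 ± 0.19 (SE), adjusted p = 2.93e-04). Neither showed any overlap of the stages. Sox21 had a log2 fold change of 1.31 ± 0.15 (SE) (adjusted p = 4.60e-04), and Cbr2, an enzyme of airway epithelium, one of 2.19 ± 0.36 (SE) (adjusted p = 0.00336). Hey2, a Notch target, was at 49.3, 17.1 and 37.3 and 116, 98.8 and 103 CPM (log2 fold change 1.61 ± 0.29 (SE), adjusted p = 0.00521), and its call was lost without E12.5 replicate 1 (1.54, adjusted p = 0.0521).

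**Figure D4:**
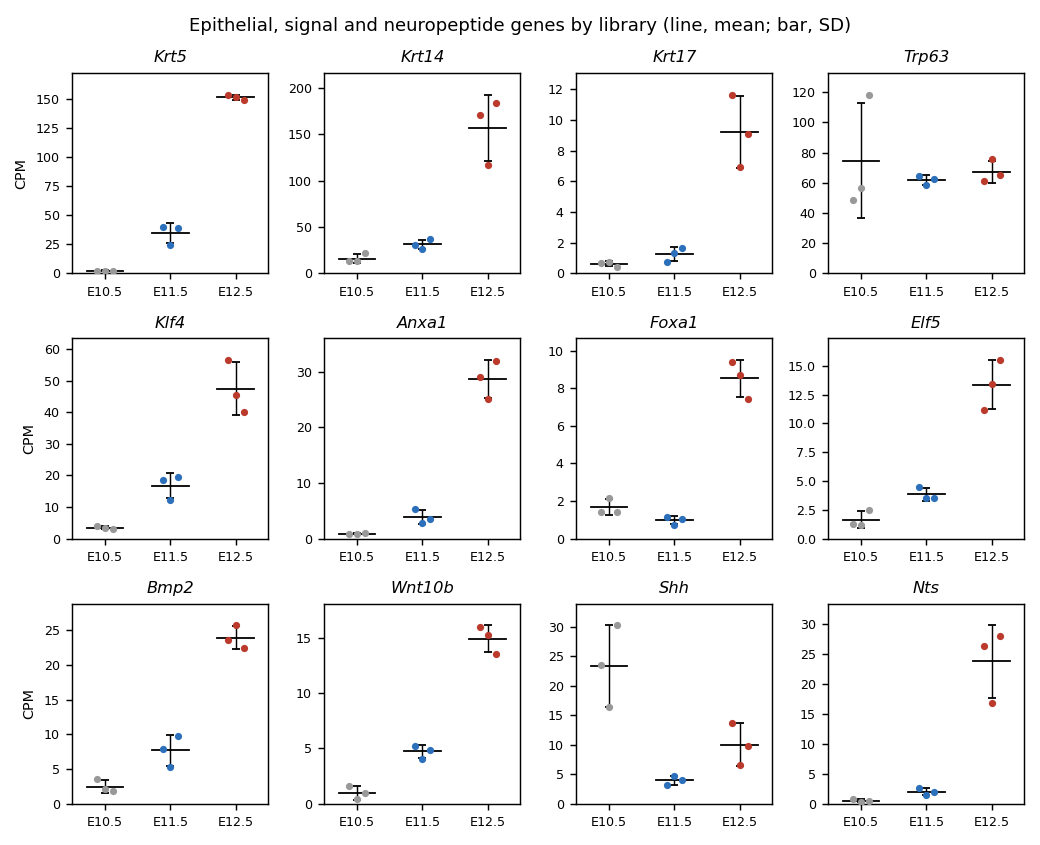
Level in CPM (y axis, linear, from 0) of 12 epithelial, signal and neuropeptide genes in each library of E10.5 (grey), E11.5 (blue) and E12.5 (red), with the mean as a line and the SD as a bar (n = 3). Krt5, Krt14 and Foxa1 lie far higher in all E12.5 libraries, whereas Trp63 overlaps between E11.5 and E12.5.

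Of 32 olfactory neuron lineage genes tested, 4 were higher (12.5%) and 1 lower (3.125%), with a median log2 fold change of 0.22. Of 28 genes of differentiating neurons, 5 were higher (17.9%) and 1 lower (3.57%), with a median of 0.29. The shares of all genes tested were 4.14% and 0.962%. Stmn2, a microtubule regulator of growing axons held by both lists, was at 41.4, 31 and 40 and 94.1, 91.5 and 132 CPM (log2 fold change 1.49 ± 0.17 (SE), adjusted p = 4.33e-04). Prph, the filament peripherin of peripheral neurons, had a log2 fold change of 1.64 ± 0.28 (SE) (adjusted p = 0.00411). Emx2, a homeobox factor of olfactory progenitors, was at 19.1, 12.8 and 19 and 65.5, 45.5 and 44.4 CPM (log2 fold change 1.61 ± 0.20 (SE), adjusted p = 6.28e-04). Neurod4, a bHLH factor of neuronal precursors, had 11, 16 and 15 counts at E11.5 and 0 in each E12.5 library, at least 4.22-fold lower against 3 counts per library (adjusted p = 0.00346). Ret, a receptor of sensory and autonomic neurons, was at 13.5, 18.4 and 14.6 and 6.42, 7.05 and 4.88 CPM (log2 fold change -1.35 ± 0.19 (SE), adjusted p = 0.00151). Omp, the marker of mature olfactory neurons, had at most 9 counts in any library.

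Of 18 Schwann cell and olfactory glia genes tested, 7 were higher (38.9%, beside 4.14% of all genes tested). Without E12.5 replicate 1, 3 were higher, and without E11.5 replicate 2, 4 were. The median log2 fold change was 0.90. Pmp22, a myelin protein, was at 16, 13 and 15.6 and 43, 31.1 and 36.2 CPM (log2 fold change 1.30 ± 0.16 (SE), adjusted p = 5.22e-04). S100b, a calcium-binding protein of glia, was at 0.215, 0.048 and 0 and 0.957, 2.31 and 1.01 CPM (log2 fold change 3.96 ± 0.73 (SE), adjusted p = 0.00634). Sox10, the glial regulator, was at 14.5, 14.4 and 16.2 and 38.2, 28.4 and 26.2 CPM (log2 fold change 1.04 ± 0.16 (SE), adjusted p = 0.00252). Its call was lost without E12.5 replicate 1 (0.87, adjusted p = 0.0158) and without E11.5 replicate 2 (0.99, adjusted p = 0.0204). In the pigment cell list, Dct, an enzyme of melanin synthesis, was the higher member among 8 tested (log2 fold change 2.07 ± 0.50 (SE), adjusted p = 0.023), a call lost without E11.5 replicate 1 or 2 or E12.5 replicate 3. This 1 gene made a share of 12.5%, beside 4.14% of all genes tested.

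In the endothelium list, 2 of 21 members tested were higher (9.52%, beside 4.14% of all genes tested) and the median log2 fold change was 0.01. They were the factors Sox18, at 20.8, 18.1 and 21.3 and 67.2, 49.4 and 62.1 CPM (log2 fold change 1.57 ± 0.15 (SE), adjusted p = 1.58e-04), and Erg, at 12.4, 12.7 and 14.2 and 38.3, 35.6 and 28 CPM (log2 fold change 1.37 ± 0.15 (SE), adjusted p = 3.72e-04). The summed level of all 22 endothelial genes was 603–618 CPM at E11.5 and 599–662 CPM at E12.5. In the macrophage and immune list, the mast cell protease Cpa3 was the higher member among 28 tested, at 0.107, 0.577 and 0.21 and 2.08, 1.61 and 1.97 CPM (log2 fold change 2.60 ± 0.48 (SE), adjusted p = 0.00643). This share of 3.57% was no larger than the 4.14% of all genes tested. Among 16 muscle genes tested, Mef2c, also a factor of neural crest and vessels, rose (log2 fold change 1.25 ± 0.16 (SE), adjusted p = 6.94e-04), as did Unc45b, a myosin chaperone (log2 fold change 1.75 ± 0.35 (SE), adjusted p = 0.00965). Unc45b was not called with E11.5 replicate 2 or with E12.5 replicate 1 omitted (1.64 and 1.58, adjusted p = 0.0630 and 0.0557). Des, the filament desmin, fell at 2.47, 4.23 and 3.16 and 1.18, 0.7 and 0.536 CPM (log2 fold change -2.02 ± 0.35 (SE), adjusted p = 0.00461). Of the muscle list, 12.5% were thus higher and 6.25% lower, beside 4.14% and 0.962% of all genes tested.

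In the Wnt list 7 of 43 members tested were higher (16.3%, beside 4.14% of all genes tested), with a median log2 fold change of 0.54. Wnt16 was at 0.537, 0.384 and 0.789 and 4.95, 5.87 and 6.08 CPM (log2 fold change 3.29 ± 0.30 (SE), adjusted p = 1.27e-04), and Lgr6, a receptor for R-spondins, had a log2 fold change of 1.59 ± 0.18 (SE) (adjusted p = 3.76e-04). In the BMP and TGF-beta list, 7 of 36 were higher (19.4%) and 1 lower (2.78%, beside 0.962% of all genes tested), with a median of 0.67. Bmp6 was at 3.12, 2.02 and 3.63 and 14.6, 16.7 and 13.1 CPM (log2 fold change 2.34 ± 0.22 (SE), adjusted p = 1.68e-04) and Gdf10, a BMP3-like ligand, at 15.6, 6 and 12.6 and 75.5, 60.1 and 59.3 CPM (log2 fold change 2.51 ± 0.28 (SE), adjusted p = 3.38e-04). The BMP antagonist Nog rose as well (log2 fold change 1.59 ± 0.17 (SE), adjusted p = 2.87e-04), and Gdf6, a ligand of joint and skull development, fell (log2 fold change -1.19 ± 0.14 (SE), adjusted p = 4.36e-04).

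Among FGF ligands and receptors the median log2 fold change was 0.46 over 16 members tested, and among feedback genes and targets it was -0.54 over 13. Fgf8, the ectodermal FGF of the early face, was at 13.1, 18 and 16 and 6.64, 4.85 and 4.71 CPM (log2 fold change -1.55 ± 0.19 (SE), adjusted p = 6.69e-04). Fgf17, a close relative, had a log2 fold change of -1.20 ± 0.21 (SE) (adjusted p = 0.00483), whereas Fgf18, a ligand of skeletal growth, was at 0.699, 0.721 and 0.579 and 4.78, 3.39 and 3.16 CPM (log2 fold change 2.48 ± 0.30 (SE), adjusted p = 5.30e-04). The FGF targets Etv4 and Etv5 stayed just short of the fold threshold, with log2 fold changes of -0.98 ± 0.15 (SE) and -0.86 ± 0.13 (SE) (adjusted p = 0.00205 and 0.00246), and no library of E12.5 reached those of E11.5. The summed level of the 13 feedback genes and targets was 1162–1217 CPM at E11.5 and 739–949 CPM at E12.5. In retinoic acid metabolism, 2 of 16 members tested were higher (12.5%) and 3 lower (18.75%), beside 4.14% and 0.962% of all genes tested. In the fits without E11.5 replicate 2 or without E12.5 replicate 1, 1 was higher. The synthesis enzymes went opposite ways: Aldh1a2 rose from 27.3, 22.4 and 27.9 to 64.5, 55.5 and 55.5 CPM (log2 fold change 1.17 ± 0.14 (SE), adjusted p = 4.34e-04), and Aldh1a3 was at 130.4, 136 and 129.8 and 50.4, 69.1 and 68.7 CPM (log2 fold change -1.08 ± 0.14 (SE), adjusted p = 9.42e-04). The latter call was lost without E12.5 replicate 1 (-0.94, adjusted p = 0.00619). Rarb, a retinoic acid receptor and target, had a log2 fold change of -1.45 ± 0.19 (SE) (adjusted p = 7.68e-04), with 38.4% of its exon sequence shared with another gene, and Stra6, the retinol uptake receptor, one of -1.26 ± 0.17 (SE) (adjusted p = 0.00121). In the Hedgehog list, 2 of 15 members tested were higher (13.3%), Shh among them, and the median log2 fold change was 0.00. Ptch1, a receptor and target of the pathway, had a log2 fold change of -0.21 ± 0.18 (SE) (adjusted p = 0.448) and its target Gli1 one of 0.57 ± 0.18 (SE) (adjusted p = 0.0635). Without E12.5 replicate 1, 1 member was higher.

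Of 1084 genes that the deposited table annotates with a transcription factor family, 67 were higher and 18 lower, together 7.84%, beside 5.1% of all genes. Outside the lists already described, Sp9, a zinc finger factor of limb and face outgrowth, was at 0.323, 0.24 and 0.368 and 8.27, 5.06 and 5.42 CPM (log2 fold change 4.30 ± 0.34 (SE), adjusted p = 4.99e-05). En1, a homeobox factor, was at 0.968, 0.288 and 1.16 and 15, 6.79 and 11.7 CPM (log2 fold change 3.79 ± 0.41 (SE), adjusted p = 3.15e-04). The nuclear factor I genes Nfix, Nfia and Nfib, known for late differentiation in many tissues, had log2 fold changes of 2.07 ± 0.24 (SE), 1.23 ± 0.15 (SE) and 1.14 ± 0.16 (SE) (adjusted p = 4.36e-04, 4.71e-04 and 0.0011). The call of Nfib was lost without E11.5 replicate 2 (0.98, adjusted p = 0.00645). Sim1 had 0, 0 and 1 counts at E11.5 and 0.957, 1.4 and 1.61 CPM at E12.5, at least 8.56-fold higher (adjusted p = 7.44e-04). In the patterning list of 45 genes tested, Osr1, Osr2, Shox2 and Emx2 were higher and Lix1 lower, with a median log2 fold change of -0.06. These are shares of 8.89% and 2.22%, beside 4.14% and 0.962% of all genes tested. Shox2 was not called with E11.5 replicate 2 or with E12.5 replicate 1 omitted (0.93 and 0.92, adjusted p = 0.0133 and 0.0127). With E11.5 replicate 1, E12.5 replicate 1 or E12.5 replicate 2 omitted, 2 members of the list were lower. Lix1, a gene of the developing face and limb, was at 199.8, 204 and 180.0 and 64.2, 69.6 and 65.2 CPM (log2 fold change -1.56 ± 0.12 (SE), adjusted p = 3.92e-05).

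Genes that went from undetected to expressed were few. With at most 3 counts in each E11.5 library and at least 1 CPM in each E12.5 library, they numbered 5: Tnmd and Krt6a, given above, Olfm5, Cpne4 and Npy4r. Olfm5, an olfactomedin family gene, had 0 counts in each E11.5 library and 36, 47 and 25 at E12.5, at least 13.1-fold higher (adjusted p = 4.61e-04). Cpne4, a copine that binds membranes with calcium, had 0, 0 and 2 counts and then 25, 50 and 22, at least 11.7-fold higher (adjusted p = 0.00119). Npy4r, a receptor of the neuropeptide Y family, had 0, 0 and 2 counts and then 31, 35 and 22, at least 10.7-fold higher (adjusted p = 7.93e-04). By the same rule in reverse, the number of genes that went from expressed to undetected was 0. These counts rest on the limit: at 10 counts there were 34 of the former and 5 of the latter.

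The genes with the smallest p-values among those that fell included genes of the early embryo and of red cells. In the list of heterochronic and embryonic growth genes, 8 of 25 members tested were lower (32%, beside 0.962% of all genes tested). The median log2 fold change was -0.61. Lin28a, the RNA-binding protein that blocks let-7 maturation, was at 58.5, 73.9 and 109 CPM in the E10.5 libraries, 3.17, 6.15 and 3.21 CPM at E11.5 and 0.45, 0.862 and 0.298 CPM at E12.5. Its log2 fold change was -2.94 ± 0.42 (SE) (adjusted p = 0.00158). Lin28b, its paralog, was at 124, 144 and 209, then 27.2, 39.7 and 30.1 and then 5.63, 7.05 and 5.42 CPM (log2 fold change -2.43 ± 0.19 (SE), adjusted p = 4.57e-05). Libraries of the 3 stages thus formed separate steps for both. Trim71, a let-7 target of early progenitors, was at 22.3, 29.8 and 22.2 and 3.21, 6.41 and 5 CPM (log2 fold change -2.35 ± 0.24 (SE), adjusted p = 2.16e-04). Sall4, a zinc finger factor of pluripotent and early limb cells, was at 25.1, 37.1 and 31.1 and 9.23, 9.1 and 9.41 CPM (log2 fold change -1.76 ± 0.17 (SE), adjusted p = 1.58e-04). Igdcc3, an immunoglobulin superfamily gene, had a log2 fold change of -2.53 ± 0.29 (SE) (adjusted p = 3.95e-04).

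The remaining lower DEGs with the smallest p-values belong to no single list. Dpep1, a membrane dipeptidase, was at 19, 23.4 and 17.1 and 2.81, 2.31 and 2.38 CPM (log2 fold change -2.98 ± 0.19 (SE), adjusted p = 1.61e-05). Crym, which binds thyroid hormone, was at 98.2, 158 and 137 and 41.7, 39.5 and 48.7 CPM (log2 fold change -1.60 ± 0.18 (SE), adjusted p = 3.36e-04). Dusp9, a phosphatase of MAP kinases, was at 79, 111 and 92.4 and 40.1, 35.8 and 33.6 CPM (log2 fold change -1.37 ± 0.15 (SE), adjusted p = 2.96e-04). Asb4, Fndc3c1 and Fignl2 had log2 fold changes of -1.34 ± 0.14 (SE), -1.47 ± 0.16 (SE) and -1.54 ± 0.18 (SE). Sall1, a relative of Sall4, also fell (log2 fold change -1.36 ± 0.18 (SE), adjusted p = 9.50e-04).

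Of 34 erythroid genes tested, 10 were lower (29.4%) and 2 higher (5.88%), with a median log2 fold change of -0.78. Of all genes tested, 0.962% were lower and 4.14% higher. Hemgn, a nuclear protein of red cell precursors, was at 26.8, 26.7 and 25.5 and 2.08, 2.85 and 1.37 CPM (log2 fold change -3.64 ± 0.22 (SE), adjusted p = 1.28e-05). Gata1, the erythroid regulator, was at 5.64, 3.89 and 4.84 and 1.18, 1.89 and 1.49 CPM (log2 fold change -1.65 ± 0.27 (SE), adjusted p = 0.00297). Sptb, which encodes a spectrin chain of the red cell membrane skeleton, had a log2 fold change of -1.61 ± 0.22 (SE) (adjusted p = 0.00121). Among globins, the embryonic Hbb-bh1 was at 572, 685 and 604 and 148, 124 and 203 CPM (log2 fold change -1.98 ± 0.18 (SE), adjusted p = 1.39e-04), while Hbb-y, also embryonic, was at 2839, 2540 and 2854 and 2983, 2780 and 3610 CPM with overlapping stages (log2 fold change 0.18 ± 0.15 (SE), adjusted p = 0.426). Adult Hbb-bs was at 16.3, 17.1 and 23.7 and 70.2, 74.8 and 89.4 CPM (log2 fold change 2.03 ± 0.17 (SE), adjusted p = 7.25e-05), though reads of the near-identical Hbb-bt may be split between both genes. The second higher member, Aqp1, is a water channel of red cells and also of capillaries (log2 fold change 2.39 ± 0.20 (SE), adjusted p = 8.34e-05). Leaving the erythroid genes out before normalization gave 790 DEGs, each of them among the 806.

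**Figure D5:**
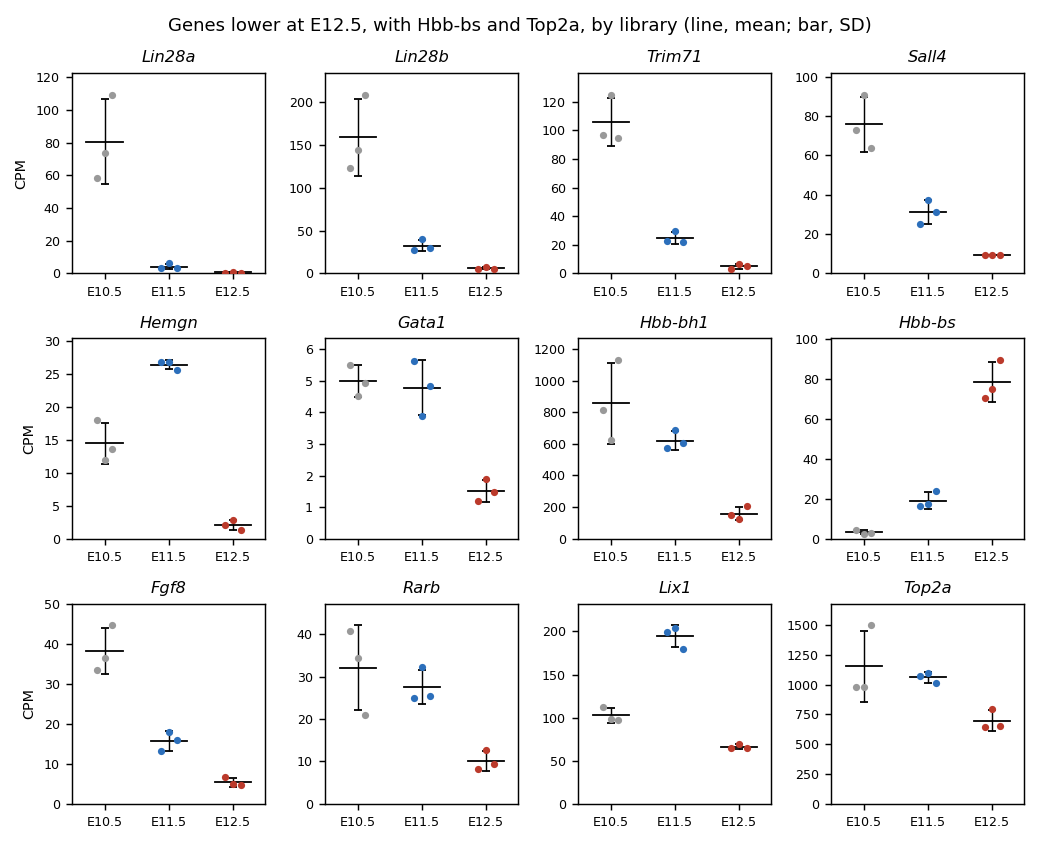
Level in CPM (y axis, linear, from 0) of 12 genes in each library of E10.5 (grey), E11.5 (blue) and E12.5 (red), with the mean as a line and the SD as a bar (n = 3). All panels but that of Top2a, a mitosis gene below the fold threshold, show DEGs, and Hbb-bs is higher at E12.5 while the others are lower.

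Genes of mitosis and DNA replication gave small differences, most of them below 0. The number of DEGs among the 42 tested was 0 in edgeR and 0 in DESeq2, but 40 of the 42 log2 fold changes were below 0, beside 7593 of 15808 for all genes, and the median was -0.41. With no fold threshold, 18 of the 42 were lower in edgeR at adjusted p-values up to 0.05, against 4.57% of all genes, and 31 at an unadjusted p below 0.05. Top2a, the topoisomerase of dividing cells, was at 1069, 1099 and 1013 and 642, 796 and 653 CPM (log2 fold change -0.61 ± 0.13 (SE), adjusted p = 0.0145), and every E12.5 library was below every E11.5 library. The summed level of the 20 mitosis genes was 4976–5346 CPM at E11.5 and 3625–3943 CPM at E12.5, and that of the 22 replication genes was 4262–4698 and 3343–3519 CPM. In the cell cycle exit list, which holds inhibitors and also cyclins, Cdkn1a and Cdkn2c, which encode inhibitors of cyclin-dependent kinases, were higher among 16 tested, with log2 fold changes of 1.04 ± 0.17 (SE) and 1.08 ± 0.17 (SE) (adjusted p = 0.00297 and 0.00295). They made 12.5% of the members tested, beside 4.14% of all genes tested. Neither was called without E12.5 replicate 3 (0.90 and 0.98, adjusted p = 0.00583 and 0.00717). Cdkn1a was also not called without E11.5 replicate 1 (0.93, adjusted p = 0.0206), nor Cdkn2c without E11.5 replicate 2 (0.99, adjusted p = 0.0261). Whether cells divided less often was not tested.

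By change in CPM, the largest falls were spread over several functions. Hbb-bh1, Peg10 and Hba-x were the DEGs or red cell genes among the 10, and the rest included Eno1 and Pkm of glycolysis and the chaperones Hsp90aa1 and Hsp90ab1. Peg10, an imprinted gene of growth, was at 699.6, 736 and 664 and 343, 369.9 and 226 CPM (log2 fold change -1.17 ± 0.18 (SE), adjusted p = 0.00205), a call lost without E12.5 replicate 3 (-0.99, adjusted p = 0.000462). Eno1 was at 1234, 1584 and 1328 and 976, 874 and 1003 CPM (log2 fold change -0.55 ± 0.14 (SE), adjusted p = 0.029). Hsp90aa1 was at 1214, 1444 and 1209 and 908, 879.5 and 947 CPM (log2 fold change -0.51 ± 0.13 (SE), adjusted p = 0.029). Both stayed below the fold threshold with no overlap of the stages. The rise in CPM was largest for CT010467.1, at 1651, 3559 and 3044 and 3105, 2539 and 5734 CPM, which shares 73.9% of its exon sequence with another gene. Together with Gm23935 and mt-Cytb, the mitochondrial cytochrome b gene, it was among the 10 largest rises, but the stages overlapped for all 3, with log2 fold changes of 0.46 ± 0.32 (SE), 0.46 ± 0.32 (SE) and 0.17 ± 0.19 (SE) (adjusted p = 0.364, 0.355 and 0.573). Also among the 10, H19, an imprinted noncoding RNA of mesoderm, was at 1240, 1379 and 1409 and 2026, 1891 and 2229 CPM (log2 fold change 0.60 ± 0.13 (SE), adjusted p = 0.0144). The ribosomal protein gene Rps27a was at 216, 335 and 255 and 723, 352 and 926 CPM, with E12.5 replicate 2 close to the E11.5 range, and its call (log2 fold change 1.30 ± 0.29 (SE), adjusted p = 0.0167) held in 2 of the 6 fits with a library omitted.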

How the data were processed

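RNA was extracted with TRIzol, libraries were prepared with the Illumina TruSeq RNA kit and sequenced on an Illumina NovaSeq instrument. Per the paper's methods and the processing notes, the authors ran FASTQC, aligned reads by HISAT2 2.0.5 to the mouse genome (GRCm38/mm10) and counted them with featureCounts. The authors deposited raw gene-level read counts as whole numbers for every library and FPKM values, which they computed from gene length and counts. The strand setting and the treatment of multiply mapped reads are not given in the sources used here. FPKM served only to compare levels between genes. Columns with the authors' own fold changes and p-values for each pair of stages were not used.

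Counts were analysed in R 4.3.3 with edgeR 4.0.16: filterByExpr, TMM and the quasi-likelihood test on the 3 libraries of E11.5 and the 3 of E12.5, grouped by the labels, with Benjamini-Hochberg adjustment over all 15808 genes tested. Each SE was obtained as the size of the log2 fold change over the root of its F statistic. CPM used TMM-scaled sizes of all 9 libraries. The 6 libraries held 16581009–20836804 counts. Bounds against 3 counts cover counting error only. With 3 libraries against 3, an exact permutation test cannot go below p = 0.1. Exon overlaps came from GENCODE vM21 (GRCm38), promoters from RefSeq (GRCm38.p6). The 34 gene lists were written by hand, and the members and lists were chosen with earlier results of these data known. Genes were named by fixed rules: the 12 higher and 12 lower DEGs of smallest p with separate stages, the 10 largest rises and falls in CPM, the genes switched on, the regulators and up to 5 called members per direction of each list, called transcription factors, and runs of at least 3 adjacent DEGs. Other genes were named after their values were seen, and some genes that the rules would name are not reported here. Alternatives were DESeq2 1.42.0, other normalizations and filters, a fit on all 9 libraries, a replicate block, glmTreat, removal of GC or length trends, other thresholds, and each library left out in turn.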

Additional observations from a re-analysis of the deposited data

How the results depend on the processing

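In E12.5 vs. E11.5, the 806 DEGs (654 higher, 152 lower) became 144 (127, 17) with glmTreat, 498 (419, 79) at an adjusted p of at most 0.01 and 1926 (1203, 723) with no fold-change threshold. With all genes with at least 1 count the lower DEGs numbered 252. Leaving out 1 library gave 502–1181 DEGs, 409–789 higher and 85–392 lower, the extremes being without E11.5 replicate 2, E12.5 replicate 1 and E12.5 replicate 2. With at most 10 counts as the limit, 34 genes were switched on and 5 switched off, and leaving out 1 library gave 6–11 and 0–1. The 65 runs of adjacent DEGs became 43 with DESeq2, 33 with at least 10 counts in each library, 7 with glmTreat, 29 at an adjusted p of at most 0.01 and 158 with no fold threshold, and leaving out 1 library gave 29–90. The cause was not tested. The replicate numbers did not pair the libraries: deviations from the stage means correlated at -0.05, -0.18 and 0.07 between libraries of the same number. Fitting the number as a replicate block gave 887 DEGs (687, 200). Of 186 named genes, 102 lost their call with glmTreat, 20 at an adjusted p of at most 0.01, 13 in the fit on all 9 libraries, 12 with the length trend removed, 11 with the GC trend removed, 2–6 with the block, DESeq2 or another normalization, and 3–26 with 1 library left out, 26 without E12.5 replicate 1 and 25 without E11.5 replicate 2. No named gene turned its direction. At 16581009–20836804 counts per library, genes with at most 3 counts in each library of a stage are given with a bound. The fitted folds of S100b, Hoxd1 and Sst, with 0 counts in 1 E11.5 library each, depend on the prior count.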

Other observations

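Several gene groups outside the report, or named there only in passing, were described after their values had been seen, so their counts are descriptions. Of 14 tested genes for neuropeptides and their processing, 7 were higher at E12.5, beside 4.14% of all genes tested. Npy, among the 7, lost its call in each fit with a library omitted but that without E12.5 replicate 2. Nts, which encodes neurotensin, was at 2.69, 1.49 and 1.95 CPM at E11.5 and 26.3, 16.8 and 28.1 CPM at E12.5 (log2 fold change 3.54 ± 0.26 (SE), adjusted p = 3.92e-05 in edgeR's quasi-likelihood test). Penk, which encodes proenkephalin, was at 15.5, 10.8 and 16.7 and 94.8, 66.4 and 106 CPM (log2 fold change 2.63 ± 0.21 (SE), adjusted p = 5.32e-05), with 14.3% of its exon sequence shared with another gene. Sst, which encodes somatostatin, was at 0, 0.288 and 0.0526 and 5.01, 3.29 and 7.74 CPM (log2 fold change 5.40 ± 0.61 (SE), adjusted p = 3.76e-04), and Tac1, which encodes substance P, at 2.04, 0.913 and 2.37 and 7.04, 6.14 and 9.23 CPM (log2 fold change 2.07 ± 0.32 (SE), adjusted p = 0.00216). No E12.5 library of these 4 genes reached down to an E11.5 library. In which cells they were expressed cannot be told from whole tissue.

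Of 6 tested heparan sulfate 3-O-sulfotransferases, 4 were higher, Hs3st1, Hs3st4, Hs3st5 and Hs3st6. Of 6 caveolin and cavin genes tested, Cav1, Cavin1 and Cavin3 were higher and 1 was lower. Cav1, the scaffold of caveolae, was at 9.89, 8.31 and 9.84 and 24.9, 24.8 and 24.6 CPM (log2 fold change 1.40 ± 0.14 (SE), adjusted p = 2.10e-04). All 3 prostaglandin E receptors tested, Ptger2, Ptger3 and Ptger4, and all 3 tested Lrrtm genes, synaptic adhesion proteins, were higher. Of 5 CCAAT enhancer binding proteins tested, Cebpa, Cebpb and Cebpd were higher, with log2 fold changes of 1.24 ± 0.19 (SE), 1.71 ± 0.27 (SE) and 1.07 ± 0.23 (SE). Of 19 beta protocadherin genes tested, 10 were higher, and since these paralogs are alike in sequence, how their reads were divided is uncertain.

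Among the remaining lists, 8 of 36 immediate early and stress genes tested were higher (22.2%), with a median log2 fold change of 0.49. Fosl2 was at 9.14, 10.2 and 11.4 and 27.9, 25.1 and 27 CPM (log2 fold change 1.37 ± 0.14 (SE), adjusted p = 2.52e-04). In the interferon list, Ifitm1 was the higher member among 15 tested (log2 fold change 1.62 ± 0.27 (SE), adjusted p = 0.00389), a share of 6.67% beside 4.14% of all genes tested. In the smooth muscle list, Acta2 and Cspg4 were higher among 13 tested (15.4%, beside 4.14% of all genes tested). Without E11.5 replicate 2 neither was (1.31 and 0.97, adjusted p = 0.0519 and 0.029). Acta2 was also not called without E11.5 replicate 1 or 3, nor Cspg4 without E11.5 replicate 3 or E12.5 replicate 1 or 2. The median log2 fold change of the list was 0.34. The summed level of its 18 genes was 555–583 CPM at E11.5 and 365–582 CPM at E12.5. Hoxd1 was the tested member among the 16 Hox genes of the list and was higher, at 0.269, 0 and 0.158 and 2.03, 1.51 and 1.79 CPM (log2 fold change 3.62 ± 0.59 (SE), adjusted p = 0.00302). Hoxd8, which the list does not hold, was also a higher DEG and lies next to Hoxd1 among the genes tested. In the forebrain and eye list, Crb2 was the lower member among 14 tested (log2 fold change -1.48 ± 0.31 (SE), adjusted p = 0.0127), a call lost without E12.5 replicate 1. This share was 7.14%, beside 0.962% of all genes tested, and the list's median log2 fold change was -0.53. With no fold threshold, edgeR gave 3 lower and 1 higher at adjusted p-values up to 0.05. At an unadjusted p below 0.05 it gave 7 lower and 1 higher, beside 2097 and 2584 of 15808 genes. Of 9 lens and choroid plexus genes tested, 0 were called by edgeR and 0 by DESeq2, and 1 was lower at an unadjusted p below 0.05. Their untested member Ttr rose to 15.1 and 46.9 CPM in E12.5 replicates 1 and 2 and was at 0 in replicate 3. Other untested choroid plexus genes had the same order: Kcnj13 had 13, 38 and 0 counts, Folr1 9, 21 and 0, and Kl 8, 12 and 0. At E11.5 each had at most 1 count in any library. The summed level of the 10 choroid plexus genes, Ttr included, was 72.7–85.1 CPM at E11.5 and 104.8, 164 and 82.6 CPM at E12.5. Whether the pools differed in tissue content was not tested.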
